A study of Mus musculus with 26 samples.

Results

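The genes described here encode the mitochondrial respiratory chain and the ATP synthase. They were chosen by symbol in the GENCODE mouse annotation of GRCm38, as protein-coding genes beginning with Nduf, Sdh, Uqcr, Atp5 or Cox4 to Cox8, together with the protein-coding genes of the mitochondrial genome. The rule found 110 of the 52636 genes in the count tables, 97 of them nuclear and 13 mitochondrial. The test across genes held 105 of them, 94 nuclear and 11 mitochondrial. The 5 that did not pass the filter on low counts were mt-Nd3, mt-Nd4l, Atp5l, Cox7b2 and Cox8c, and Cox8c had no read in any of the 26 libraries.

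Complexes I, III and IV pass electrons to oxygen and pump protons across the inner mitochondrial membrane, complex II feeds in electrons from succinate without pumping, and complex V, the ATP synthase, lets the protons back to make ATP. All complex II subunits are nuclear, while each of the other complexes joins nuclear subunits to a few encoded and translated inside the mitochondrion, so that transcripts of both genomes are needed for 1 enzyme. Microglia, the macrophages of the brain, are known to move between oxidative and glycolytic metabolism when they are activated. Grn encodes progranulin, a secreted and lysosomal protein, and Tmem106b encodes a lysosomal membrane protein, and both are linked to frontotemporal dementia in humans.

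The data are polyA RNA-seq of mouse microglia, made with a low-input full-length cDNA kit and Nextera XT tagmentation. The 26 libraries fell into 7 genotype groups: Tmem106b HET Grn KO (n = 3), Tmem106b HET Grn HET (n = 3), Tmem106b WT Grn KO (n = 4), Tmem106b WT Grn HET (n = 5), Tmem106b KO Grn WT (n = 4), Tmem106b HET Grn WT (n = 4) and Tmem106b WT Grn WT (n = 3). The labels also give the sex (14 female and 12 male libraries) and a dissection called Entire (18) or Hemi (8), with no further explanation. Age, strain and the way the cells were isolated are not given in the sources used here, and nothing there ties a library to an animal of its own. The p-values therefore describe how far these libraries scatter, which may be technical.

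The library totals were 37.6 to 63.7 M counts (median 48.8 M). All 10 microglia markers, such as Cx3cr1 and P2ry12, were detected in every library, and their sum lay between 39296 and 70373 CPM (counts scaled to a common library total) except in Tmem106b HET Grn KO replicates 2 (36110 CPM) and 3 (15770 CPM) and in Tmem106b KO Grn WT replicate 2 (12543 CPM). All 12 neuron markers, such as Snap25 and Syt1, were detected in every library too, and their sum was highest in Tmem106b HET Grn KO replicate 3 (9593 CPM) and Tmem106b KO Grn WT replicate 2 (9981 CPM), both Hemi. Grn itself had 0.0206, 1.64 and 8.04 CPM in Tmem106b HET Grn KO and 0.138, 16.0, 3.22 and 0.0 CPM in Tmem106b WT Grn KO, against 2075 to 4048 CPM in Tmem106b HET Grn WT and 2299 to 3897 CPM in Tmem106b WT Grn WT. Tmem106b had 24.0, 26.7, 26.4 and 35.7 CPM in Tmem106b KO Grn WT, against 88.6, 68.7 and 75.5 CPM in Tmem106b WT Grn WT. It had 71.8, 46.3, 83.4 and 39.1 CPM in Tmem106b HET Grn WT, which overlapped Tmem106b WT Grn WT (log2 fold change -0.30, SE 0.22, adjusted p = 1.0, edgeR), so that its RNA does not by itself tell the HET from the WT label.

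How abundant the transcripts were is described first, as mean CPM per kb of exonic width over the 26 libraries, the scale on which genes of different length can be set side by side. Single-gene CPM values use library totals scaled by trimmed mean of M values (TMM), and sums of CPM use the plain total. In complex IV, cytochrome c oxidase, Cox4i1 led with 565 CPM per kb, ahead of Cox8a (298) and Cox6a1 (272). In complex V Atp5b, the gene of the catalytic beta subunit (484 CPM per kb), and Atp5a1 (256) led, followed by Atp5g3 (191), 1 of 3 genes for the same c-ring protein. Uqcrc1, a core protein of complex III, had 237 CPM per kb, Uqcr10 had 178 and Uqcr11 had 116. The leading genes of complex I, Ndufa2 (180 CPM per kb), Ndufb10 (165) and the iron-sulphur subunit Ndufs7 (162), and of complex II, the iron-sulphur subunit Sdhb (163), the flavoprotein Sdha (151) and the membrane anchor Sdhd (130), lay close together.

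The mitochondrial genes spanned a far wider range. mt-Cytb, cytochrome b of complex III, had 895 ± 234 CPM per kb and mt-Nd1, a membrane subunit of complex I, had 560 ± 170 CPM per kb (SD, n = 26 libraries). mt-Co1, the catalytic subunit of complex IV, had 127 CPM per kb, and the complex I subunits mt-Nd4, mt-Nd5, mt-Nd6 and mt-Nd2 had 112, 107, 105 and 94.3. mt-Atp6 and mt-Atp8 of the ATP synthase had 1.16 and 0.95 CPM per kb, mt-Co3 and mt-Co2 of complex IV had 0.681 and 0.404, and mt-Nd3 and mt-Nd4l of complex I had 0.0557 and 0.0476. Summed over the 13 genes, mitochondrial transcripts took 0.12% to 0.368% of the counts of a library. Most of that sum was mt-Cytb (1322962 counts over the 26 libraries) and mt-Nd1 (689910 counts). The low genes had from 18 (mt-Nd4l) to 986 counts (mt-Atp6). The share holds for these counts and does not measure all mitochondrial RNA.

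The low mitochondrial genes are, apart from mt-Atp8, those whose sequence also occurs in other annotated transcripts. Only annotated transcripts were compared, so a copy outside them would not be seen. mt-Atp8 (chrM:7766-7969) follows mt-Co2 (chrM:7013-7696) and overlaps the start of mt-Atp6 (chrM:7927-8607). Every 50-base window of mt-Co2 was also found in the transcript of another gene, as were 99.86% of the windows of mt-Co3, 99.53% of mt-Atp6, 98.79% of mt-Nd4l and 97.99% of mt-Nd3. The share was 62.23% for mt-Nd4, 51.14% for mt-Co1, 8.19% for mt-Nd2 and 7.61% for mt-Nd5, and none for mt-Cytb, mt-Nd1, mt-Nd6 and mt-Atp8. The pseudogene Gm28437 on chromosome 1, which holds the copy of mt-Co3, had 0.39 CPM. The first 60 bases of mt-Co3 (GRCm38, chrM:8607-8666, plus strand), which stand unchanged in Gm28437, and of mt-Cytb (chrM:14145-14204, plus strand), which do not, show such a pair.
mt-Co3: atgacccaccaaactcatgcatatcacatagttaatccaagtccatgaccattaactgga
mt-Cytb: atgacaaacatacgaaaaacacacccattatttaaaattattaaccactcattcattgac
How the submitters counted reads that fit several genes is not given in the sources used here. The levels of mt-Co2, mt-Co3, mt-Atp6, mt-Nd3 and mt-Nd4l are therefore uncertain. The levels of mt-Nd4 and mt-Co1, and to a smaller part mt-Nd2 and mt-Nd5, are open to the same doubt. The part of shared sequence in all these levels was not tested. The level of mt-Atp8 is uncertain too, because a copy that is not annotated would have been missed.

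**Figure D1:**
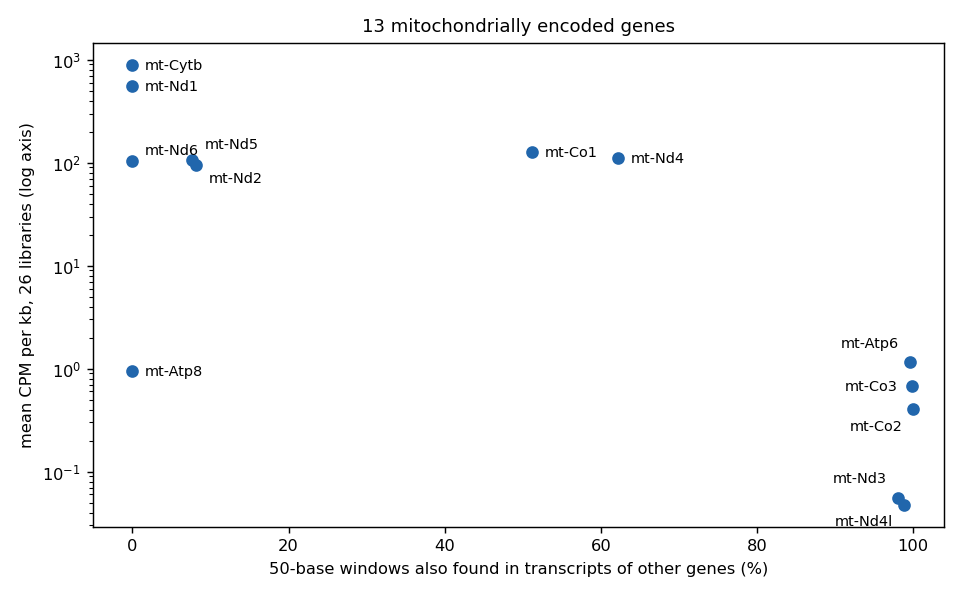
Mean CPM per kb of the 13 mitochondrially encoded genes (log axis) against the share of their 50-base windows also found in transcripts of other genes. The 5 genes above 97% lie at or below 1.16 CPM per kb, and mt-Atp8 is low with no window found in an annotated transcript of another gene.

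Shared sequence also touched some nuclear genes. Atp5l, with 10% of its windows in other genes, averaged 0.0437 CPM, and Atp5g2 (38.35%) averaged 0.11 CPM, although both encode membrane subunits of the ATP synthase. Cox7c, Cox5b, Ndufb4 and Uqcrb, all subunits of ubiquitous complexes, averaged 5.02, 7.85, 4.3 and 6.15 CPM. These levels are uncertain in the same way.

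The summed CPM of the 97 nuclear genes was 8846, 11039 and 21432 in Tmem106b HET Grn KO, 6546, 6588 and 7070 in Tmem106b HET Grn HET, and 7814, 8527, 9154 and 8637 in Tmem106b WT Grn KO. It was 5840, 13817, 5739, 7640 and 11391 in Tmem106b WT Grn HET, 8553, 20167, 10002 and 6302 in Tmem106b KO Grn WT, 5928, 5463, 8289 and 7355 in Tmem106b HET Grn WT, and 5765, 8455 and 6987 in Tmem106b WT Grn WT. All Tmem106b HET Grn KO sums lay above all Tmem106b HET Grn WT sums, while Tmem106b WT Grn KO and Tmem106b WT Grn WT overlapped. The overlap depended on the scaling: with TMM-scaled totals, the scale of the single genes, the sum was 8403 to 10503 CPM in Tmem106b WT Grn KO, against 6349 to 7779 CPM in Tmem106b WT Grn WT, and the groups were separate. On that scale it was 10328 to 17457 CPM in Tmem106b HET Grn KO, against 5760 to 7764 CPM in Tmem106b HET Grn WT, again without overlap. The highest libraries, Tmem106b HET Grn KO replicate 3 and Tmem106b KO Grn WT replicate 2, were the 2 with the highest neuron markers. In a bulk library, fewer cells of a type and less RNA per cell cannot be told apart.

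The 13 mitochondrial genes together had 1591, 1957 and 3021 CPM in Tmem106b HET Grn KO, against 2308, 1812, 2599 and 2117 CPM in Tmem106b HET Grn WT. They had 1492, 2984, 1679 and 1323 CPM in Tmem106b WT Grn KO, against 1198, 2448 and 3012 CPM in Tmem106b WT Grn WT. Both pairs overlapped. The ratio of the nuclear to the mitochondrial sum was 5.56, 5.64 and 7.09 in Tmem106b HET Grn KO, against 2.57, 3.01, 3.19 and 3.47 in Tmem106b HET Grn WT, with no overlap. It was 5.24, 2.86, 5.45 and 6.53 in Tmem106b WT Grn KO, against 4.81, 3.45 and 2.32 in Tmem106b WT Grn WT, where the groups overlapped. No p-value is given for these sums, because the genes were chosen with results known. The mitochondrial sums and the ratios rest mostly on mt-Cytb and mt-Nd1.

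**Figure D2:**
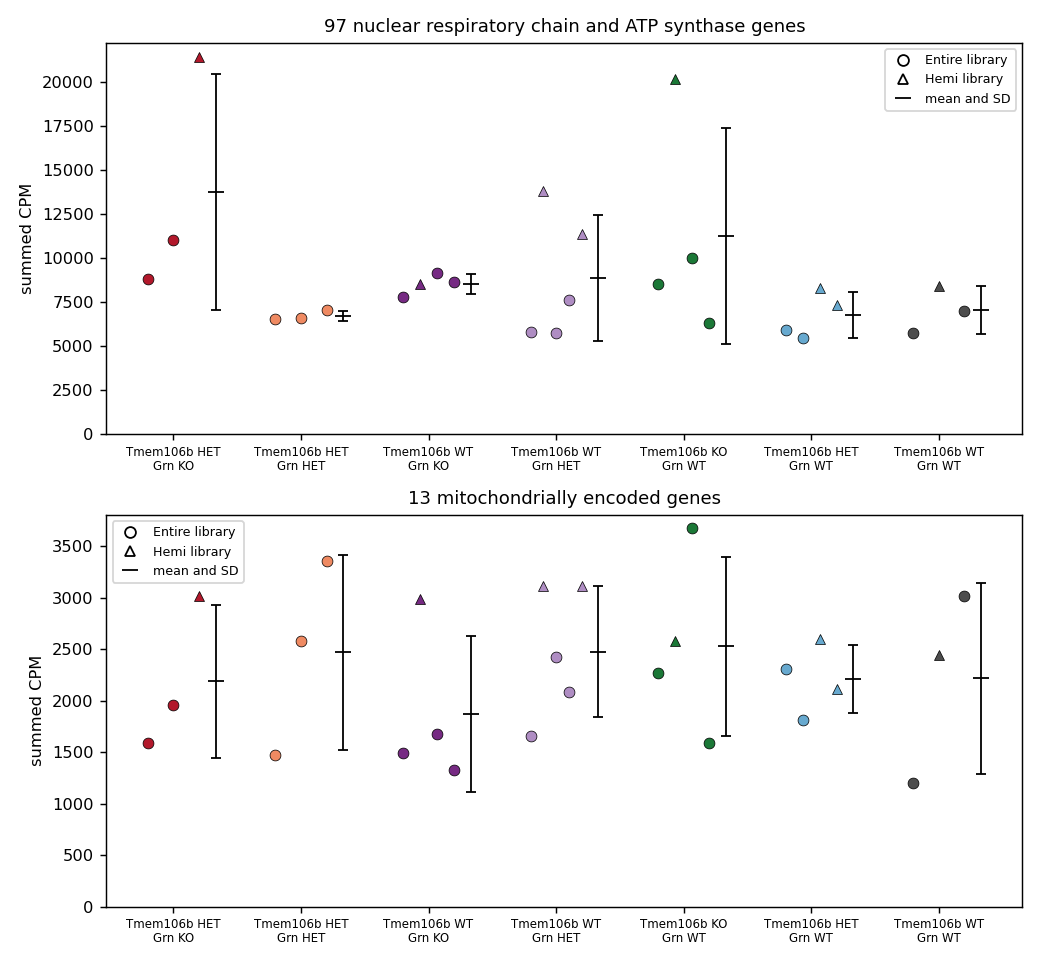
Summed CPM of the 97 nuclear (top) and 13 mitochondrial genes (bottom) in each library by genotype group, circles for Entire and triangles for Hemi libraries, with the mean and SD of each group. The nuclear sum averaged 13773 ± 6724 in Tmem106b HET Grn KO and 6759 ± 1300 in Tmem106b HET Grn WT, and the mitochondrial sum 2190 ± 743 and 2209 ± 331 in the same groups.

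The loss of Grn on the Tmem106b HET background was examined by setting Tmem106b HET Grn KO against Tmem106b HET Grn WT. Nuclear respiratory genes were higher in Tmem106b HET Grn KO across every complex, and no mitochondrial gene was called. Of the 94 nuclear genes tested, 71 rose and 0 fell (edgeR quasi-likelihood test, adjusted p under 0.05, sex and dissection as covariates), against 8.42% of all 21371 genes called higher and 6.05% called lower. An unadjusted p under 0.05 was found for 80, 79 of them higher (29.8% of all genes in either direction), and DESeq2 called 78 higher and 1 lower (24.6% of all genes) and limma 74 (18.2%). Their median log2 fold change was 1.23, against -0.02 over all genes, and 92 of the 94 values were positive. In 74 of the 94 every Tmem106b HET Grn KO library lay above every Tmem106b HET Grn WT library, as in 9.85% of all genes. The number of calls depended on the covariates: 11 members were called without any (0.721% of all genes called higher) and 0 with the neuron-marker level as a covariate, where 8 genes in all were called (0.0374%). Of the 71 called, 42 remained without Tmem106b HET Grn KO replicate 3 (3.75% of all genes called higher) and 35 among Entire libraries alone, an analysis chosen after seeing the data that called 3.56% of all genes higher.

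Complex I, which takes electrons from NADH, had 32 of its 36 nuclear subunits called higher, with a median log2 fold change of 1.23. Ndufb2, a small membrane-arm subunit, had 34.9, 44.4 and 100 CPM in Tmem106b HET Grn KO, against 14.7, 12.9, 20.5 and 22.9 CPM in Tmem106b HET Grn WT. Its groups did not overlap (log2 fold change 1.80, SE 0.30, adjusted p = 0.0022). Ndufa1, an X-linked membrane subunit, had 107, 74.6 and 92.4 CPM in Tmem106b HET Grn KO, against 28.3, 21.9, 26.6 and 27.0 CPM in Tmem106b HET Grn WT. Every Tmem106b HET Grn KO library held more than the highest Tmem106b HET Grn WT library (1.89, SE 0.32, adjusted p = 0.0022). Ndufa5 (log2 fold change 1.74), Ndufa12 (1.6) and Ndufa13 (1.34), further accessory subunits, and Ndufv2 (1.51), which holds an iron-sulphur cluster, also rose. The 29 accessory subunits gave 27 calls with a median of 1.28, and the 7 nuclear core subunits, which carry the redox chemistry, gave 5 calls with a median of 0.74. Among the core subunits Ndufs3 lay just inside the threshold (0.67, adjusted p = 0.049).

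Complex II gave 1 call among 4 subunits, with a median of 0.48. The called gene was Sdhb, with 236, 199 and 285 CPM in Tmem106b HET Grn KO, against 117, 143, 160 and 151 CPM in Tmem106b HET Grn WT. Those groups did not overlap, and the log2 fold change was 0.81 (SE 0.18, adjusted p = 0.0069). Sdhd (0.51, adjusted p = 0.062), Sdha (0.45, adjusted p = 0.082) and Sdhc (0.42, adjusted p = 0.11) had positive values that did not pass the test.

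Complex III gave 7 calls among 8 nuclear subunits, with a median of 1.24. Uqcrq, a small subunit that binds ubiquinone in bovine enzyme, had 137, 153 and 270.0 CPM in Tmem106b HET Grn KO, against 65.9, 53.8, 82.8 and 69.9 CPM in Tmem106b HET Grn WT. Its lowest Tmem106b HET Grn KO library was well above the highest Tmem106b HET Grn WT library (1.5, SE 0.27, adjusted p = 0.0029). Uqcrc1 had the smallest called change of the complex (0.62, SE 0.17, adjusted p = 0.019), and the other core protein, Uqcrc2, was not called (0.62, adjusted p = 0.073).

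Complex IV, leaving out its tissue isoforms, gave 10 calls among 11 subunits and the highest median, 1.66. Cox4i1, the ubiquitous form of the subunit through which ATP regulates the enzyme, had 555, 525 and 844 CPM in Tmem106b HET Grn KO, against 273, 217, 364 and 320.0 CPM in Tmem106b HET Grn WT. Cox7a2, the ubiquitous form of subunit 7a, had 88.3, 100 and 219 CPM in Tmem106b HET Grn KO, against 44.1, 25.7, 64.9 and 45.4 CPM in Tmem106b HET Grn WT. Neither gene's groups overlapped (Cox4i1 1.20, SE 0.22; Cox7a2 1.66, SE 0.30; both adjusted p = 0.0029). Cox6c (1.66), Cox8a (1.46), Cox5a (1.82), Cox6b1 (1.33), Cox7b (1.92) and Ndufa4 (1.86), a former complex I subunit now placed in complex IV, rose as well. Cox7c, at 6.04 CPM in Tmem106b HET Grn KO and 3.56 CPM in Tmem106b HET Grn WT, was the subunit not called (0.78, adjusted p = 0.25).

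Complex V gave 14 calls among 15 subunits, with a median of 1.41. Atp5j, the coupling factor 6 of the stalk, had 150.0, 135 and 254 CPM in Tmem106b HET Grn KO, against 60.9, 58.7, 99.4 and 64.7 CPM in Tmem106b HET Grn WT. Atp5b, the catalytic beta subunit, had 1019, 1256 and 1959 CPM in Tmem106b HET Grn KO, against 601, 721, 838 and 853 CPM in Tmem106b HET Grn WT. In both genes the groups were separate (Atp5j 1.41, SE 0.24, adjusted p = 0.0024; Atp5b 0.97, SE 0.22, adjusted p = 0.008). Atp5j overlaps Gabpa, which holds 7.73% of its windows and had a log2 fold change of -0.87 (adjusted p = 0.1), so the reads of that stretch cannot be told apart without strand. Of the c-ring genes, Atp5g3 had 178, 185 and 376 CPM in Tmem106b HET Grn KO, against 64.7, 61.8, 121 and 103 CPM in Tmem106b HET Grn WT (1.62, SE 0.32, adjusted p = 0.0042). Atp5g1 had 5.19, 9.18 and 20.5 CPM in Tmem106b HET Grn KO, against 2.4, 2.81, 4.74 and 5.61 CPM in Tmem106b HET Grn WT, and its groups overlapped (1.70, adjusted p = 0.014). Atp5g2, at most 0.223 CPM in Tmem106b HET Grn KO and 0.158 CPM in Tmem106b HET Grn WT, was the gene not called (1.23, adjusted p = 0.4).

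Assembly factors, which build the complexes without staying in them, gave 4 calls of 8 for complex I (median 0.85) and 2 of 4 for complex II (median 0.67). Exonic width went with the size of the change: nuclear genes under 1 kb gave 41 calls of 48 with a median of 1.38, those from 1 to 2 kb gave 21 of 30 with 0.95, and those of 2 kb or more gave 9 of 16 with 0.81. Over all genes tested the medians in those width classes were 0.31, 0.14 and -0.15. The part of width in the result was not tested. Genes with under 1% of windows shared with other genes (34 of 46 called, median 1.26) and the rest (37 of 48, median 1.21) gave similar values.

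None of the 11 mitochondrial genes tested was called by edgeR, DESeq2 or limma, none had an unadjusted p under 0.05, and their median was 0.11 (-0.01 without Tmem106b HET Grn WT replicate 4). mt-Cytb had 817, 844 and 1020.0 CPM in Tmem106b HET Grn KO, against 1097, 863, 1041 and 1015 CPM in Tmem106b HET Grn WT (-0.15, SE 0.29, adjusted p = 0.78). mt-Nd1 had 451, 457 and 645 CPM in Tmem106b HET Grn KO, against 507, 441, 598 and 425 CPM in Tmem106b HET Grn WT (0.11, SE 0.34, adjusted p = 0.86). mt-Co1 had 184, 146 and 230.0 CPM in Tmem106b HET Grn KO, against 174, 254, 208 and 171 CPM in Tmem106b HET Grn WT (-0.11, SE 0.30, adjusted p = 0.84). The groups of all 3 genes overlapped. mt-Nd5 (0.06), mt-Nd4 (0.05), mt-Nd2 (0.05) and mt-Nd6 (0.35) had small positive values, and mt-Atp6 (0.79), mt-Atp8 (0.83), mt-Co2 (0.96) and mt-Co3 (0.93), all below 1.5 CPM in both groups, had larger ones with SEs of 0.76 to 1.09.

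**Figure D3:**
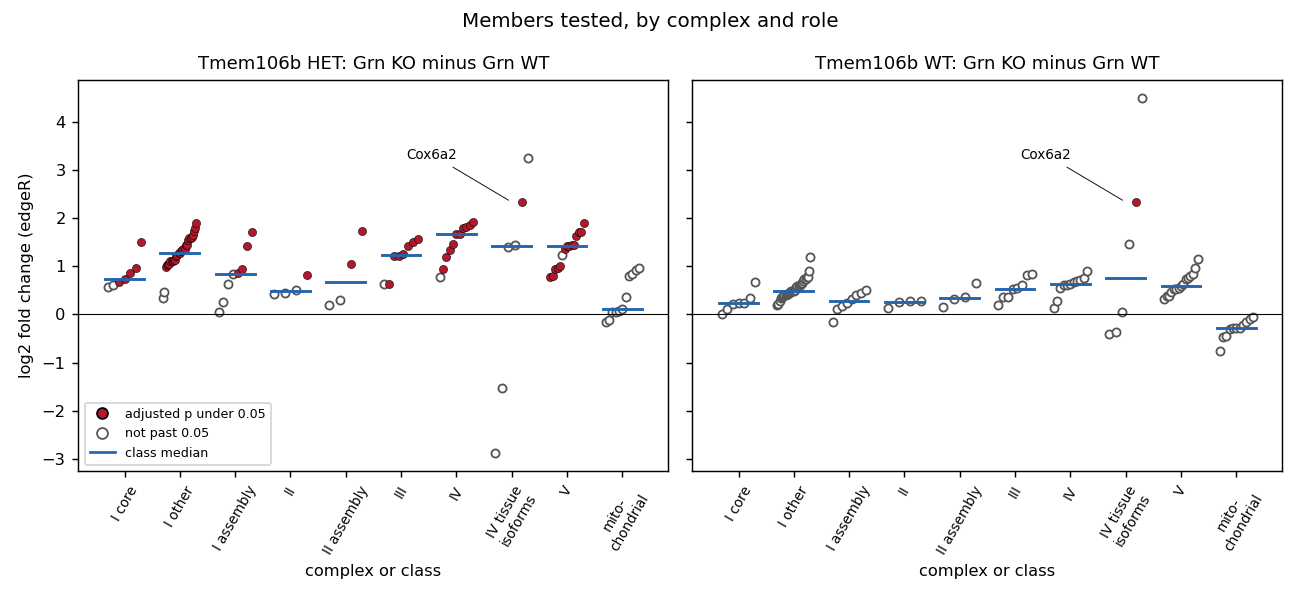
Log2 fold changes (edgeR) of the tested genes by complex and role for Tmem106b HET Grn KO minus Tmem106b HET Grn WT (left) and Tmem106b WT Grn KO minus Tmem106b WT Grn WT (right), filled where adjusted p was under 0.05, bars at class medians, without the supercomplex factor Cox7a2l and the associated factor Atp5s. Nearly all subunit classes lie above 0 in both panels, calls fill the left panel, and Cox6a2 is the only call on the right.

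Markers of other cells moved in the same comparison. All 12 neuron markers rose, with a median log2 fold change of 3.46, and summed to 676, 2622 and 9593 CPM in Tmem106b HET Grn KO, against 82.4, 103, 895 and 1538 CPM in Tmem106b HET Grn WT. All 10 markers of medial habenula neurons rose, with a median of 7.29, and summed to 414, 1908 and 1436 CPM in Tmem106b HET Grn KO, against 6.95 to 94.1 CPM in Tmem106b HET Grn WT. Of 10 microglia markers 4 fell, with a median of -0.61. With the neuron-marker level as a covariate the nuclear median was 0.76 and the mitochondrial one 0.29. All 3 Tmem106b HET Grn KO libraries lay above the Entire Tmem106b HET Grn WT libraries in neuron markers, and in these groups genotype and neuron markers cannot be fully told apart. Without the 2 libraries of highest neuron markers, an alternative added with the data in view, 43 nuclear genes were called (4.02% of all genes higher), with a median of 1.05.

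**Figure D4:**
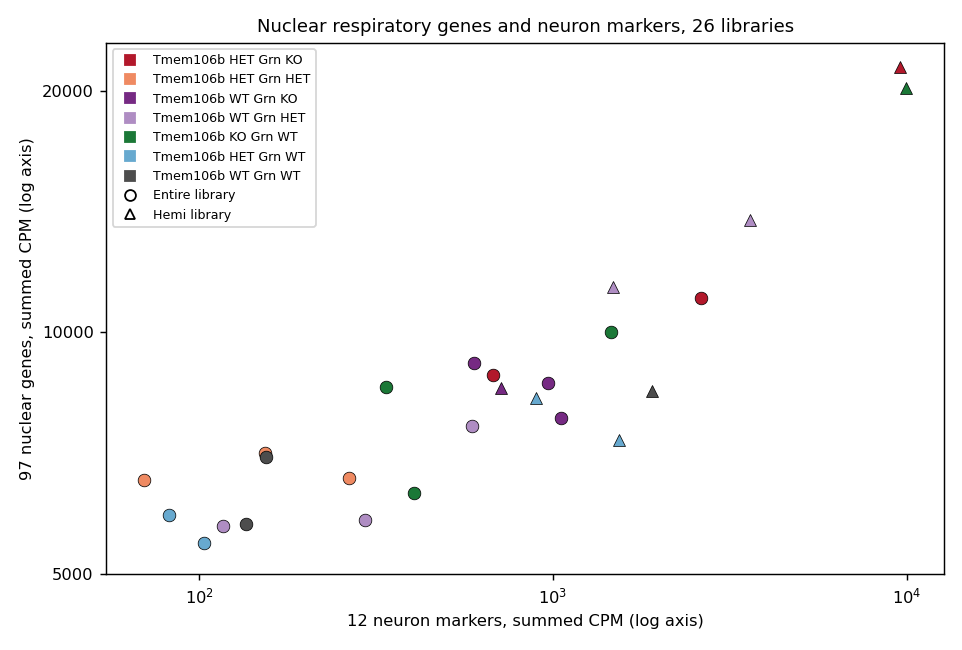
Summed CPM of the 97 nuclear genes against summed CPM of the 12 neuron markers (both log axes) in the 26 libraries, coloured by genotype group, circles for Entire and triangles for Hemi libraries. The nuclear sum is higher where neuron markers are higher, up to 21432 CPM at 9593 CPM of markers, and all 26 points share the library total as denominator on both axes.

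The dissection moved with the sum too: nuclear genes summed to 12429 ± 5578 CPM in Hemi libraries (n = 8) and 7440 ± 1625 CPM in Entire libraries (n = 18). In Tmem106b HET Grn KO and Tmem106b HET Grn WT the Entire libraries were all female and the Hemi libraries all male, so sex and dissection are told apart only through the other genotypes.

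Cox6a2 encodes the heart and muscle form of subunit 6a of complex IV, and Cox6a1 the form found in most tissues. Cox6a2 (ENSMUSG00000030785) lies on GRCm38 chromosome 7 from 128205435 to 128206387, minus strand, within Itgad, which is read in the other direction. It had 147, 70.3 and 48.0 CPM in Tmem106b HET Grn KO, against 22.5, 13.1, 11.7 and 18.4 CPM in Tmem106b HET Grn WT. It had 78.2, 67.2, 108 and 127 CPM in Tmem106b WT Grn KO, against 12.1, 21.7 and 18.5 CPM in Tmem106b WT Grn WT. Every Grn KO library lay above every other library of the study, where the highest value was 43.7 CPM in Tmem106b KO Grn WT. The log2 fold change was 2.33 in both comparisons, with SE 0.39 and adjusted p = 0.0022 on the Tmem106b HET background and SE 0.41 and adjusted p = 0.011 on the Tmem106b WT background. The interaction, which asks whether the Grn KO change depends on Tmem106b, was 0.01 (SE 0.53, adjusted p = 1.0).

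Cox6a2 in Grn HET libraries overlapped with Grn WT libraries. It had 24.7, 17.0 and 33.8 CPM in Tmem106b HET Grn HET (0.68 against Tmem106b HET Grn WT, SE 0.40, adjusted p = 0.86) and 24.3, 25.3, 15.5, 22.8 and 30.3 CPM in Tmem106b WT Grn HET (0.35 against Tmem106b WT Grn WT, SE 0.37, adjusted p = 1.0). Within Tmem106b HET Grn KO its highest value stood in the library with the lowest neuron sum and its lowest in the library with the highest. The summed microglia markers fell in the same order as Cox6a2 there (53718, 36110 and 15770 CPM). What the order of these libraries rests on was not tested. Markers of medial habenula neurons were, like Cox6a2, higher in Grn KO on both backgrounds, with 464 to 564 CPM in Tmem106b WT Grn KO and 4.57 to 136 CPM in Tmem106b WT Grn WT, and their part in the result was not tested. With the neuron-marker covariate its log2 fold change was 2.41 (adjusted p = 0.022) on the Tmem106b WT background and 2.49 (adjusted p = 0.15) on the Tmem106b HET background. Without any 1 of the 3 Tmem106b WT Grn WT libraries the change was 2.17 to 2.5 and the adjusted p was 0.073 to 0.12. Itgad had at most 1.5 CPM in any library, and 3.33% of the Cox6a2 windows were shared with it, so reads of the 2 genes cannot be told apart there without strand. Of other Itga genes, Itgax had 118 to 200 CPM in Tmem106b WT Grn KO and 22.9 to 56.5 CPM in Tmem106b WT Grn WT (1.81, adjusted p = 0.4, edgeR). It had 136, 103 and 57.2 CPM in Tmem106b HET Grn KO and 11.4 to 56.1 CPM in Tmem106b HET Grn WT (1.26, adjusted p = 0.31). Itgam was lower in Grn KO on both backgrounds (-0.91 and -1.64). The part of these genes in the Cox6a2 result was not tested.

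Cox6a1 had 226, 167 and 219 CPM in Tmem106b HET Grn KO, against 109, 85.0, 153 and 94.9 CPM in Tmem106b HET Grn WT (0.94, SE 0.24, adjusted p = 0.016). It had 135, 154, 211 and 216 CPM in Tmem106b WT Grn KO, against 136, 137 and 189 CPM in Tmem106b WT Grn WT, where the groups overlapped (0.28, adjusted p = 0.72).

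**Figure D5:**
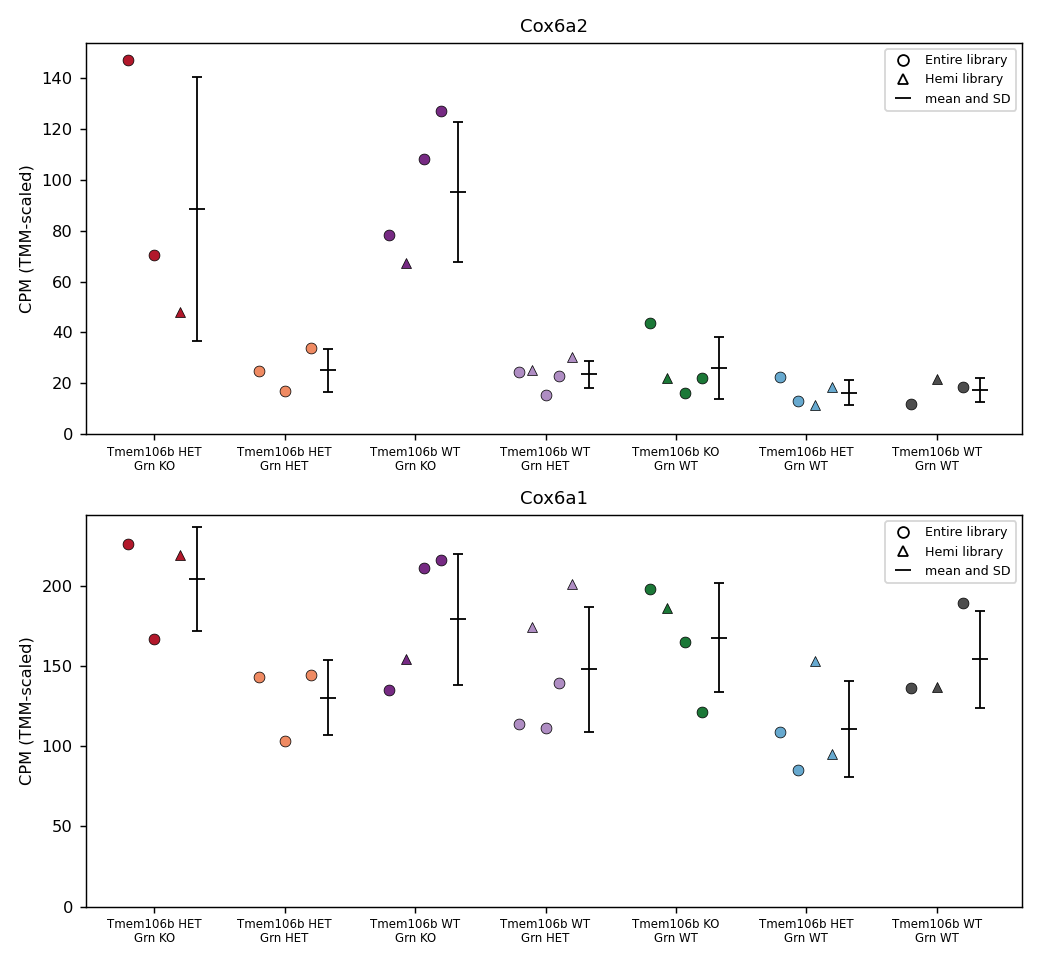
Cox6a2 (top) and Cox6a1 (bottom) in CPM in each library by genotype group, circles for Entire and triangles for Hemi libraries, with the mean and SD of each group. Cox6a2 averaged 88.3 ± 51.8 CPM in Tmem106b HET Grn KO and 95.1 ± 27.3 CPM in Tmem106b WT Grn KO, above every library of the other 5 groups.

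The other tissue isoforms were low. Cox4i2, a lung form, had at most 1.79 CPM, Cox7a1, a heart and muscle form, at most 5.83 CPM, Cox6b2, a testis form, at most 17.7 CPM, and Ndufa4l2, which is induced by hypoxia, at most 8.83 CPM. Cox7b2, another testis form, was seen in 9 libraries with at most 3.26 CPM. Cox7b2 did not pass the filter on low counts and was not tested. None of the others named here passed the edgeR test in any comparison. DESeq2 called Ndufa4l2 lower in Tmem106b HET Grn KO than in Tmem106b HET Grn WT. Cox7a2l, which helps to assemble supercomplexes, had 45.4, 39.4 and 48.0 CPM in Tmem106b HET Grn KO, against 36.6, 33.2, 33.5 and 40.6 CPM in Tmem106b HET Grn WT, with overlap (0.29, adjusted p = 0.4).

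Cox8b, the heart and muscle form of subunit 8, varied within 1 group. It had 0.386, 16.9, 0.772, 5.27 and 39.9 CPM in Tmem106b WT Grn HET, where the summed markers of choroid plexus and ependymal cells, such as Ttr, were 77.5, 4088, 364, 4612 and 27445 CPM in the same order. Elsewhere Cox8b was at most 2.62 CPM. DESeq2 called it higher in Tmem106b WT Grn HET than in Tmem106b WT Grn WT (7.52, adjusted p = 0.00034) and edgeR did not (7.4, SE 2.28, adjusted p = 1.0). The part of choroid plexus and ependymal markers in this was not tested.

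On the Tmem106b WT background the loss of Grn gave 1 call among the 94 nuclear genes, Cox6a2, against 0.426% of all genes called higher. The values of the other genes leaned the same way, with a median of 0.48 against 0.10 over all genes and 90 of 94 positive. An unadjusted p under 0.05 was found for 28, against 12.4% of all genes, and in 28 every Tmem106b WT Grn KO library lay above every Tmem106b WT Grn WT library, as in 8.78% of all genes. The medians were 0.47 for complex I, 0.26 for II, 0.54 for III, 0.62 for IV and 0.58 for V. Ndufa1 (1.18, adjusted p = 0.13) had the largest value among the subunits of complex I, and DESeq2 called it and Cox4i1 in addition to Cox6a2 (5.47% of all genes), while limma called Cox6a2 alone (0.828%). The 12 neuron markers had a median of 1.82 and no edgeR or limma call, while 10 of them had an unadjusted p under 0.05 and DESeq2 called 5.

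The mitochondrial genes leaned the other way in that comparison, with a median of -0.28, none positive and none called by edgeR, DESeq2 or limma, and none with an unadjusted p under 0.05. mt-Nd4 had 96.4, 192, 137 and 111 CPM in Tmem106b WT Grn KO, against 95.6, 149 and 245 CPM in Tmem106b WT Grn WT. mt-Nd6 had 37, 64.6, 50.6 and 45.4 CPM in Tmem106b WT Grn KO, against 34.6, 60.3 and 89.9 CPM in Tmem106b WT Grn WT. Both overlapped, and without Tmem106b WT Grn WT replicate 3, the highest for both genes, the median of the mitochondrial genes was 0.31.

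Tmem106b RNA remained in Tmem106b KO Grn WT at 28.2 ± 5.13 CPM, against 77.6 ± 10.1 CPM in Tmem106b WT Grn WT (SD, n = 4 and 3; log2 fold change -1.49, adjusted p = 0.027). There were 0 calls among the 105 genes in Tmem106b KO Grn WT against Tmem106b WT Grn WT (edgeR), where 0.00468% of all genes, Tmem106b alone, were called. Of the nuclear genes 39 had an unadjusted p under 0.05, all higher, against 11% of all genes, and the median was 0.54. DESeq2 called 2 (2.56% of all genes), the complex I core subunit Ndufv2 and the complex II assembly factor Sdhaf3, and limma called 0. Ndufv2 averaged 127 ± 92.4 CPM in Tmem106b KO Grn WT and 62.4 ± 18 CPM in Tmem106b WT Grn WT (SD, n = 4 and 3), and the groups overlapped (0.95, SE 0.29, adjusted p = 0.43). Tmem106b KO Grn WT replicate 2, the library of highest neuron markers, held the highest value of Atp5g1 (24.2 CPM), Ndufa5 (127 CPM) and Cox7b (73.2 CPM) among the 4.

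Libraries with 1 Grn copy gave no call by edgeR. In Tmem106b HET Grn HET against Tmem106b HET Grn WT, where 0.0% of all genes were called, 25 nuclear genes had an unadjusted p under 0.05 (5.54% of all genes), DESeq2 (1.3% of all genes) and limma called 0 members, and the median was 0.48 for nuclear and 0.46 for mitochondrial genes. That nuclear median was 0.19 with neither sex nor dissection as a covariate. All Tmem106b HET Grn HET libraries were Entire. In Tmem106b WT Grn HET against Tmem106b WT Grn WT, again with 0.0% of all genes called, 3 had an unadjusted p under 0.05 (3.43% of all genes), DESeq2 called Cox8b (1.44% of all genes), limma called 0, and the medians were 0.18 for nuclear and -0.14 for mitochondrial genes. Neither sign held: the nuclear median was -0.03 without Tmem106b WT Grn WT replicate 2 and -0.2 among Entire libraries, and the mitochondrial one was 0.4 without Tmem106b WT Grn WT replicate 3 and 0.03 without Tmem106b WT Grn HET replicate 1.

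Comparisons of Tmem106b HET with Tmem106b WT at a fixed Grn genotype gave no edgeR or limma call either, and 0.0% of all genes were called in each. Tmem106b HET Grn KO against Tmem106b WT Grn KO had a nuclear median of 0.35, with 7 genes at an unadjusted p under 0.05 (3.79% of all genes) and 0 DESeq2 calls (0.435% of all genes). Tmem106b HET Grn HET against Tmem106b WT Grn HET had a nuclear median of -0.07 (0.06 with the neuron-marker covariate and 0.22 among Entire libraries), with 2 such genes (6.79% of all genes), and DESeq2 called Cox8b lower (-5.54, adjusted p = 0.027; 2.41% of all genes). Tmem106b HET Grn WT against Tmem106b WT Grn WT had a nuclear median of -0.32, with 7 such genes (3.49% of all genes), all lower, and 0 DESeq2 calls (1.24% of all genes). The comparisons share libraries with each other and with those on Grn.

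Whether the Grn effect differed between Tmem106b HET and Tmem106b WT was tested by the interaction. For Grn KO the nuclear median was 0.69 and the mitochondrial one 0.50 (-0.1 without Tmem106b WT Grn WT replicate 3), with 0 calls among members by edgeR, DESeq2 and limma and 0.0% of all genes called by edgeR and 0.969% by DESeq2. An unadjusted p under 0.05 was found for 23 nuclear genes, against 4.29% of all genes. The smallest p-values belonged to Atp5j (1.02, SE 0.35, adjusted p = 0.87), the complex I core subunit Ndufs8 (0.74, SE 0.27, adjusted p = 0.87) and the ATP synthase membrane subunit Atp5mpl (1.24, SE 0.47, adjusted p = 0.87). No single gene's Grn KO change was thus shown to differ between the backgrounds, although 71 passed the test on Tmem106b HET and 1 on Tmem106b WT. For Grn HET the nuclear median was 0.28 (-0.09 without covariates), with 0 genes at an unadjusted p under 0.05 and 0 calls by the 3 tools (0.0% of all genes by edgeR, 1.88% by DESeq2, 5.6% at the unadjusted p), and Sdhb (0.57), Ndufs8 (0.55) and Ndufv3 (0.65) had the smallest p-values.

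The promoters of 4 nuclear genes are shown as a description only. RefSeq promoters (GRCm38.p6, 250 bases before to 50 after the start) matched 80 of the 97 nuclear genes. The letters GCGCATGC are the core of the site of NRF1, a known activator of respiratory genes. They stood on either strand in 12 of the 80 (15%), against 3.05% of all 27025 genes with a promoter. CCGGAAG, the type of site bound by ETS factors such as GABPA, stood in 21 (26.2%), against 9.93% of all those genes. TATAAA stood in 8 (10%), against 15.7%. Capitals mark these letters, or GCATGCGC and CTTCCGG where they are read on the other strand.
Sdhb, chr4:140961021-140961320, plus strand, with an NRF1-type and an ETS-type match: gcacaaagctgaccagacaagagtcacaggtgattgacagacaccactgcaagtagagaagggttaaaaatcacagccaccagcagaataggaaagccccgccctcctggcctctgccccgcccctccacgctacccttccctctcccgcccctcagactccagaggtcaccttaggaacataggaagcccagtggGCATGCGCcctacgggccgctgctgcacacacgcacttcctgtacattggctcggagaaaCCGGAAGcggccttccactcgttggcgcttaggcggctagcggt
Uqcrc1, chr9:108936398-108936697, plus strand, with overlapping NRF1-type matches on both strands: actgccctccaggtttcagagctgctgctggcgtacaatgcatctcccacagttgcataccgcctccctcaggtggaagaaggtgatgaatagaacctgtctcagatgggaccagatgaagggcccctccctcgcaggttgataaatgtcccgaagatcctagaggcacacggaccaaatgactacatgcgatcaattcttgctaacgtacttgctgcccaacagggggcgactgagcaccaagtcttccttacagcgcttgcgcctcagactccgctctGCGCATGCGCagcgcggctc
Cox8a, chr19:7217567-7217866, minus strand, with 2 ETS-type matches: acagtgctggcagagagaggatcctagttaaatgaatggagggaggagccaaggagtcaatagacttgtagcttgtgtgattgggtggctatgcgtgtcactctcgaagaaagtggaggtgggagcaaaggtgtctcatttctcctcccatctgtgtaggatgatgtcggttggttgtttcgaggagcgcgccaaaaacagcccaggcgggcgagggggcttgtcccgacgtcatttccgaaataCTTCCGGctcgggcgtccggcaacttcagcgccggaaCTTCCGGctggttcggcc
Ndufb2, chr6:39592315-39592614, plus strand, with no match to these letters: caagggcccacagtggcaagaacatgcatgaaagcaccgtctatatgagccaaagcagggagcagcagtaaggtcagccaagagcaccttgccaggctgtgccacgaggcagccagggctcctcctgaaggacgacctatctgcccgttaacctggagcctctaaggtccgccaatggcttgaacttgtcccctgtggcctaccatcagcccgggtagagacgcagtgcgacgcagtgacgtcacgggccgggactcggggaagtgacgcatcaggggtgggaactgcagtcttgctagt
Among genes called higher in Tmem106b HET Grn KO, 10 of 62 (16.1%) held the NRF1-type letters and 15 of 62 (24.2%) the ETS-type letters, and among tested genes not called 1 of 16 (6.25%) and 5 of 16 (31.2%). Ndufb2, the nuclear gene of smallest p, held neither, and a match is a description of the letters alone.

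Other mitochondrial gene lists gave the setting for Tmem106b HET Grn KO against Tmem106b HET Grn WT, where 8.42% of all genes were called higher and 6.05% lower. With the neuron-marker covariate, where 0.0374% of all genes were called, none of these 7 lists had a call. Without the 2 libraries of highest neuron markers 0 to 5 genes a list were called higher, and 4.02% of all genes. The lists differ in size, so these counts cannot be set directly against that share. Of 10 genes for electron carriers, adenine nucleotide carriers and subunits outside the symbol rule, 4 rose and 0 fell, with a median of 0.64. Slc25a4, an ATP and ADP carrier, averaged 746 ± 466 CPM in Tmem106b HET Grn KO and 277 ± 129 CPM in Tmem106b HET Grn WT (1.58, SE 0.28, adjusted p = 0.0027), and the phosphate carrier Slc25a3 rose by 1.17 (adjusted p = 0.0088). Of 26 assembly factors of complexes III, IV and V, 8 rose and 0 fell (median 0.59), led by Cox14 (1.19) and Uqcc2 (1.41). Of 17 genes of the tricarboxylic acid cycle 11 rose (median 0.70), led by Idh3a (1.41) and Mdh2 (1.19), and 1 fell, Idh2 (-1.25, adjusted p = 0.0088), which makes NADPH.

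Genes of the outer membrane and of protein import gave 10 calls higher of 19 and 0 lower (median 0.88), led by Timm8b (1.85) and the pore gene Vdac1 (1.32). The mitochondrial ribosome, which translates the 13 mitochondrial genes, gave 27 higher of 77 and 0 lower (median 0.62), led by Mrpl54 (1.27) and Mrps18a (0.93). The cytosolic ribosome gave 8 higher of 81 and 0 lower (median 0.71), with Rpl23 (1.38) and Rpl39 (1.93) first by p, and its 9.88% called higher lay near the 8.42% of all genes. The regulators were near the shares of all genes too, with 9.52% called in each direction. Of the 21, 2 rose, the mitochondrial RNA-binding protein gene Slirp (1.18, adjusted p = 0.02) and the coactivator gene Ppargc1a (2.59, adjusted p = 0.028). Another 2 fell, the helicase gene Twnk (-0.98, adjusted p = 0.032) and Gabpb1, which encodes a subunit of the ETS factor GABP (-0.66, adjusted p = 0.037), and the median of the regulators was -0.23. In Tmem106b WT Grn KO against Tmem106b WT Grn WT none of these lists had an edgeR call, against 0.426% of all genes called higher. An unadjusted edgeR p under 0.05 was found for 1 to 5 genes a list, against 12.4% of all genes. DESeq2 called 0 to 2 a list (5.47% of all genes) and limma 0 to 1 (0.828%), and the lists differ in size.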

How the data were processed

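Read counts per gene, deposited by the authors beside an RPKM value and an exonic width for each gene, were used; the RPKM values were not. Reads were aligned to GRCm38 with GSNAP, per the submitters' processing notes; the counting tool, strand handling and read length are not given in the sources used here. All 26 libraries (totals of 37.6 to 63.7 M counts) entered 1 edgeR 4.0.16 quasi-likelihood fit (R 4.3.3) with a term for each of the 7 groups, sex and dissection, TMM scaling and filterByExpr, which kept 21371 genes, and p-values were adjusted by Benjamini-Hochberg over all of them. Limma 3.58.1 (voom) and DESeq2 1.42.0 were alternatives. The counts limit precision through their number, and intervals between libraries are given as SD or SE. The SE of an edgeR log2 fold change was worked back from the test, as its absolute value over the square root of the F statistic. Annotated genes matched 52489 IDs, and 147 did not match (at most 0.01% of a library). The members and all lists were chosen with earlier results of these data known. Named were all mitochondrial genes, up to 15 nuclear genes called per direction by smallest p with at least 5 CPM, the 3 of highest level per complex, the 3 of smallest p per interaction, the isoform pairs, and up to 2 per other list; Ndufs3, the remaining complex II subunits, single low genes and called genes of lists with few calls were named after their values were seen.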

Additional observations from a re-analysis of the deposited data

Results flagged for a closer look

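Among 216 groups of values examined for 54 quantities, 5 held a library far from the others of its group. By chance about 1 in 20 groups would. The genotype groups with n = 3 were too small for this rule and were not examined. They are Tmem106b HET Grn KO, Tmem106b HET Grn HET and Tmem106b WT Grn WT. Atp5j had 99.4 CPM in Tmem106b HET Grn WT replicate 3, against 58.7 to 64.7 CPM in the other libraries of that group. Cox6b2 had 17.7 CPM in Tmem106b WT Grn HET replicate 5, against 1.93 to 5.68 CPM. Cox7a2l had 62.4 CPM in Tmem106b WT Grn HET replicate 2, against 32.9 to 41.3 CPM. Atp5g1 had 24.2 CPM in Tmem106b KO Grn WT replicate 2, against 4.53 to 6.76 CPM. In Tmem106b WT Grn KO, mt-Atp6 had 1.01 CPM in replicate 2 and 0.57 to 0.605 CPM in the others. All 5 libraries were Hemi.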

How the results depend on the processing

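The count of genes higher in Tmem106b HET Grn KO than in Tmem106b HET Grn WT (71) was 11 without covariates, 12 with sex only, 0 with the neuron-marker covariate, and, in alternatives chosen after seeing the data, 43 without the 2 libraries of highest neuron markers and 35 among Entire libraries; leaving out 1 library gave 42 to 68. Its nuclear median was 0.76 with the neuron-marker covariate and 1.15 to 1.31 with 1 library left out. DESeq2 gave 1 lower call there, 3 higher in Tmem106b WT Grn KO, 1 in Tmem106b WT Grn HET and 2 in Tmem106b KO Grn WT, each against Tmem106b WT Grn WT, and 1 lower in Tmem106b HET Grn HET than in Tmem106b WT Grn HET. Leaving out 1 library gave 0 (each Tmem106b WT Grn WT library) or 1 call in Tmem106b WT Grn KO against Tmem106b WT Grn WT, a nuclear median of 0.32 to 0.72 and a mitochondrial one of -0.61 to 0.31. The nuclear median of Tmem106b HET Grn HET against Tmem106b HET Grn WT was 0.19 without covariates and 0.16 with sex only. The nuclear median of the Grn HET interaction was -0.19 with sex only and 0.78 among Entire libraries, and the mitochondrial median of the Grn KO interaction was -0.1 (without Tmem106b WT Grn WT replicate 3) to 0.85. With TMM-scaled totals the nuclear sum averaged 7195 CPM in Tmem106b HET Grn HET and 9377 CPM in Tmem106b WT Grn KO, and Tmem106b WT Grn KO no longer overlapped Tmem106b WT Grn WT. The cause of these shifts was not tested. Of the other summary values 715 kept their direction and range. Medians and sums were taken as kept when they moved by less than the spread (SD) between libraries, and counts when equal or close. The 715 include counts of 0 that stayed at 0 in comparisons without a call, so they are no measure of stability. Another 14 medians changed sign by less than the spread between libraries, which in each was larger than the median itself. Of those not given above or in the results, leaving out 1 library gave mitochondrial medians down to -0.17 in Tmem106b KO Grn WT (0.18) and up to 0.32 in Tmem106b HET Grn WT (-0.31), each against Tmem106b WT Grn WT, and down to -0.18 in Tmem106b HET Grn HET against Tmem106b WT Grn HET (0.19). Of gene values 237 kept their call and 35 lost it, with no reversal. Leaving out mitochondrial counts gives no mitochondrial values. No paired analysis was possible because the labels give no replicate numbers. Low counts limit what can be said of mt-Nd3, mt-Nd4l, mt-Co2, mt-Co3, mt-Atp6, mt-Atp8, Atp5l and Atp5g2.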
